A study of Homo sapiens with 12 samples.

Results

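The 10 genes described here are linked to the cell cycle and were followed in MDA-MB-231 cells. They are the CDK inhibitors CDKN1A, CDKN1B, CDKN1C, CDKN2C and CDKN2D, the D cyclins CCND1, CCND2 and CCND3, and the G cyclins CCNG1 and CCNG2. The genes were taken by symbol from a table of raw counts for 24641 gene symbols; all 10 were listed, and 9 had enough reads to be among the 15648 genes tested, CCND2 being the exception. The 12 libraries formed 4 groups of 3: a hairpin against RIPOR3 (shRIPOR3) in hypoxia, a control hairpin (shControl) in hypoxia, shRIPOR3 in normoxia and shControl in normoxia. Hypoxia was 1% O2 for 24 hours, and all groups carried a hairpin. MDA-MB-231 is a human triple-negative breast cancer line with mesenchymal features. The column headers name 1 RIPOR3 hairpin, and whether each line is a clone or a pool is not given in the sources used here. The labels do not tell whether the 3 libraries of a group are separate cultures. The p-values therefore refer to the spread between libraries, part or all of which may be technical.

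In G1, D cyclins bind and activate the kinases CDK4 and CDK6, which phosphorylate the retinoblastoma protein and release E2F factors, and cyclin E with CDK2 then carries the cell into S phase. Inhibitors of the INK4 family, here CDKN2C (p18) and CDKN2D (p19), block CDK4 and CDK6, whereas those of the CIP/KIP family, CDKN1A (p21), CDKN1B (p27) and CDKN1C (p57), bind whole cyclin-CDK complexes. The G cyclins are atypical cyclins, of which CCNG2 is a FOXO target that is linked to cell cycle arrest and is known to be induced by low oxygen.

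Library totals ran from 31781324 to 52526813 counts in hypoxia and from 14750734 to 30032858 in normoxia, so depth differed with oxygen. RIPOR3, the targeted gene, had 9, 3 and 11 counts in hypoxic shRIPOR3 libraries against 33, 18 and 30 in hypoxic shControl libraries, and 0, 0 and 1 in normoxic shRIPOR3 against 7, 3 and 7 in normoxic shControl. The knockdown was therefore visible in the labelled libraries (adjusted p = 1.69e-06 in hypoxia and 0.0013 in normoxia, edgeR's quasi-likelihood test), on few reads. A set of 5 markers expected in this line (VIM, CD44, AXL, MSN and FN1) summed to between 6027 and 9180 CPM, and 5 expected to be low (ESR1, PGR, CDH1, EPCAM and GATA3) to between 8.62 and 11.1 CPM. MSN carried most of the first sum, with a mean of 5096 CPM over the 12 libraries, and FN1 ran from 179 to 1394 CPM. VIM, CD44 and AXL averaged 546, 468 and 457 CPM. A set of 7 markers of leukocytes, endothelium and fibroblasts (PTPRC, CD3E, PECAM1, CDH5, DCN, COL1A1 and LUM) summed to 7.24 to 7.71 CPM in hypoxic shRIPOR3, 16.6 to 17.9 in hypoxic shControl, 4.43 to 5.74 in normoxic shRIPOR3 and 9.89 to 11.8 in normoxic shControl, with CD3E or DCN at 0 in each group. PECAM1, CDH5 and COL1A1 carried that sum, with means of 3.18, 3.55 and 3.37 CPM over the 12 libraries. PTPRC, CD3E, DCN and LUM averaged 0.0755, 0.0149, 0.0113 and 0.05 CPM. The part of these markers in the results below was not tested. The same holds for 4 proliferation genes (MKI67, TOP2A, PCNA and MCM2), whose sum was 2157 to 2226 CPM in hypoxic shRIPOR3, 2976 to 3058 in hypoxic shControl, 1540 to 1582 in normoxic shRIPOR3 and 1974 to 1998 in normoxic shControl. MKI67 carried that sum, with means of 1389, 2195, 719 and 1034 CPM in the same order of groups, and the other 3 genes moved differently. For hypoxia over normoxia in shControl, the log2 fold change was 1.09 for MKI67, -0.24 for TOP2A, -0.33 for PCNA and -0.06 for MCM2 (adjusted p = 0.24 for MCM2), and MCM2 was higher in shRIPOR3 than in shControl in hypoxia (283 against 222 CPM). In bulk RNA, fewer cells in a state and less RNA per cell cannot be told apart.

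The genes differed widely in level, which is given here as CPM per kb of exon so that genes can be set side by side. CCND1 stood first in every group, with 91.5 ± 2.29 in hypoxic shRIPOR3, 113 ± 5.23 in hypoxic shControl, 81.2 ± 2.01 in normoxic shRIPOR3 and 97.8 ± 5.91 in normoxic shControl (mean ± SD, n = 3 each). CDKN2D was the second in every group, at 18.6 ± 0.195, 43.1 ± 0.922, 19.4 ± 1.67 and 39.9 ± 0.516 in the same order of groups. In normoxic shControl these were followed by CCND3 (15.7 ± 1.03), and then by CDKN1B (8.98 ± 0.155), CCNG1 (8.35 ± 0.44) and CDKN1A (7.74 ± 0.31), of which each overlapped its neighbour, by CDKN2C (7.12 ± 0.329) and, well below, by CCNG2 (1.48 ± 0.0242). In hypoxic shControl CDKN1A (13.1 ± 0.787), CCND3 (12.5 ± 0.385) and CDKN1B (12.3 ± 0.243) were close enough for neighbours to overlap. Both knockdown groups had no overlap between neighbours, and CDKN1A was the sixth of the 10 there.

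**Figure D1:**
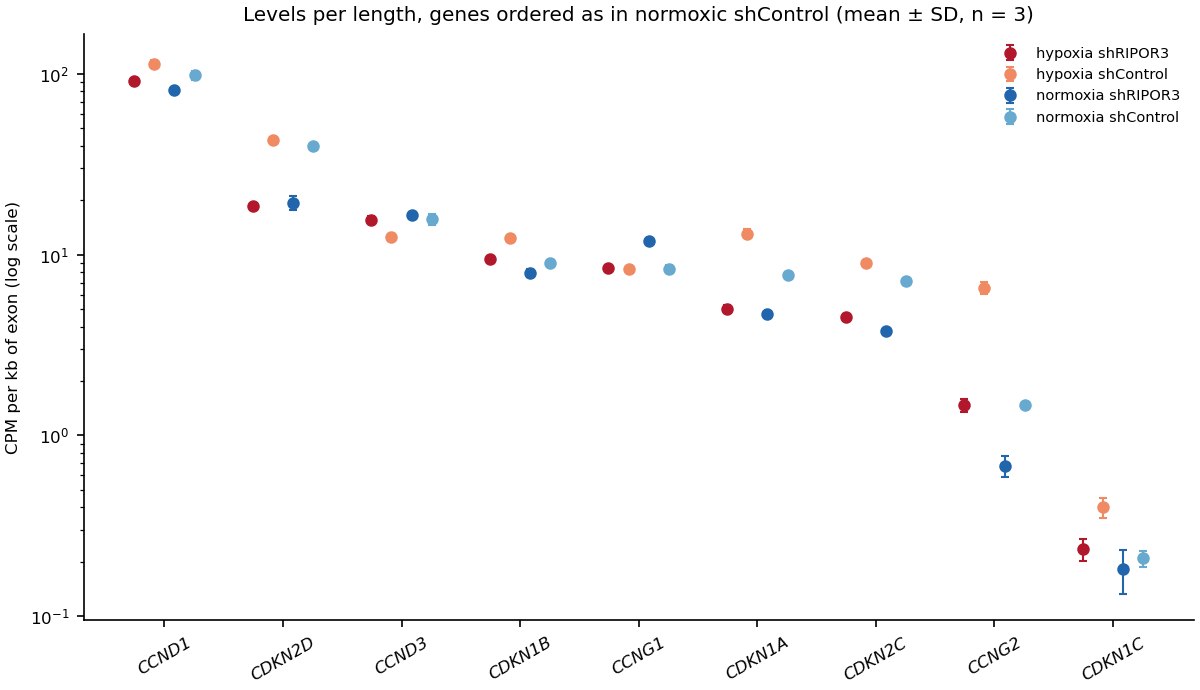
Level of each gene as CPM per kb of exon on a log axis (points: group mean; bars: SD, n = 3) in the 4 groups, with genes ordered by their level in normoxic shControl; CCND2, with 0 to 3 counts per library, is not drawn. CCND1 and CDKN2D lie highest in every group and CDKN1C lowest among the genes drawn.

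CCND1 was the most abundant D cyclin in every group. Its share of the 3 D cyclins, each per kb of exon, was 85.5 ± 0.757% in hypoxic shRIPOR3, 90.1 ± 0.456% in hypoxic shControl, 83.02 ± 0.614% in normoxic shRIPOR3 and 86.1 ± 1.49% in normoxic shControl (SD, n = 3 each). CCND2, the third D cyclin, had 0, 2 and 1 counts in hypoxic shRIPOR3, 1, 2 and 3 in hypoxic shControl, 0, 1 and 0 in normoxic shRIPOR3 and 1, 0 and 1 in normoxic shControl. Over all libraries that is 12 counts, or 0.0313 CPM (95% exact Poisson interval 0.0162 to 0.0546, counting error only). CCND2 did not pass the filter on low counts and was not tested between groups. CDKN1C was scarce too, with 6 to 35 counts per library.

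Position and neighbours bear on the counts. On GRCh38 (GENCODE 29) CDKN1A lies on chromosome 6 from 36676460 to 36687339, CDKN1B on 12 from 12715058 to 12722371, CDKN2C on 1 from 50960745 to 50974633, CDKN2D on 19 from 10566462 to 10569059 and CCNG2 on 4 from 77157151 to 77433388. CCND1 lies on chromosome 11 from 69641087 to 69654474, CCND3 on 6 from 41934933 to 42050357 and CCNG1 on 5 from 163437569 to 163446151. Exons of CDKN1A, CCND1, CCND2 and CCND3 overlap a gene annotated on the opposite strand. The kit keeps strand but the strand setting of the counting was not stated, so reads of these genes and their antisense partners may not have been told apart. The partners DINOL, LTO1, CCND2-AS1 and AL513008.1 are not listed by these symbols among the counted genes. Whether their reads were added to the genes described here was not tested. CCND2 exons also overlap AC008012.1, a protein-coding gene on the same strand. It is not listed either, and its effect on the CCND2 counts was not tested.

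**Figure D2:**
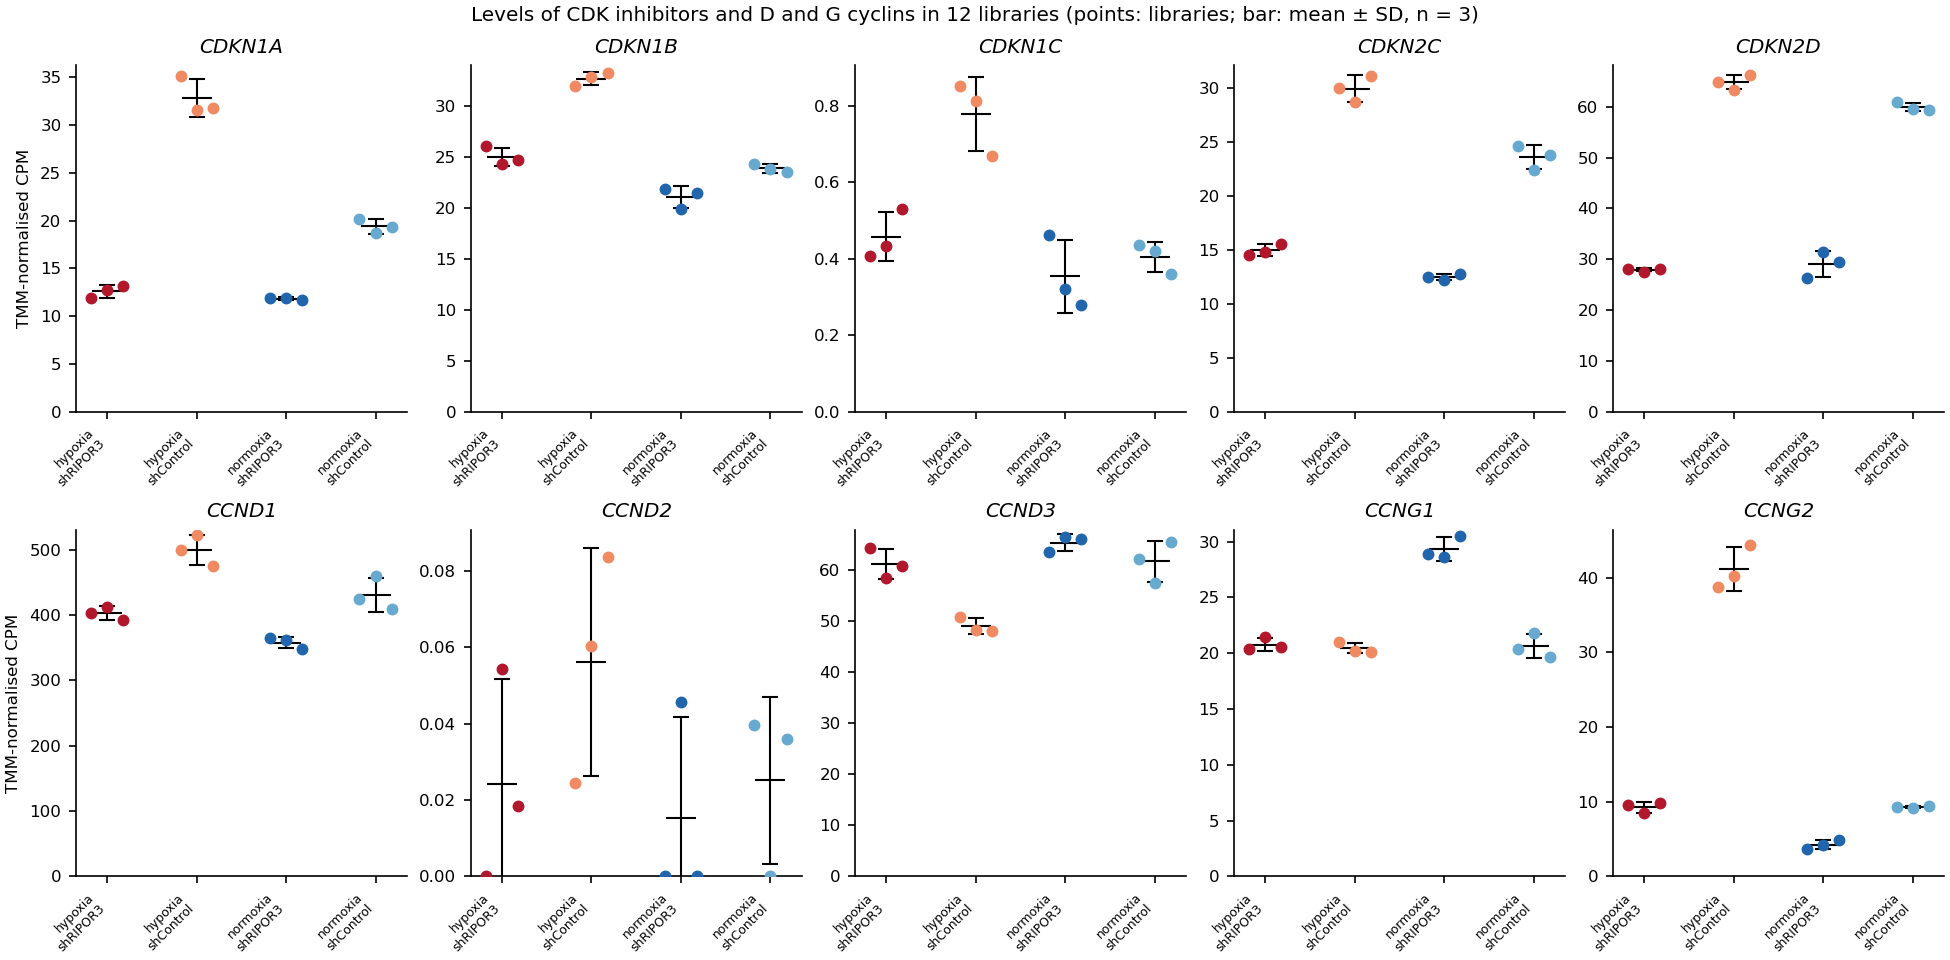
TMM-normalised CPM of each gene in the 12 libraries (points: libraries; bars: mean ± SD, n = 3), from left to right hypoxic shRIPOR3, hypoxic shControl, normoxic shRIPOR3 and normoxic shControl. CDKN1A and the INK4 genes CDKN2C and CDKN2D separate by hairpin, CCNG2 peaks in hypoxic shControl, and CCNG1 is highest in normoxic shRIPOR3.

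The first comparison asked what the RIPOR3 hairpin did to these genes. CDKN1A, CDKN1B, CDKN2C, CDKN2D, CCND1 and, by the largest fold, CCNG2 were lower in shRIPOR3 in both oxygen conditions. CDKN1C was called lower in hypoxia, CCND3 higher in hypoxia and CCNG1 higher in normoxia. In hypoxia 8 of the 9 tested genes were called at an adjusted p under 0.05, 7 lower and 1 higher, where 61.9% of all tested genes were called (31.2% lower, 30.7% higher). In normoxia 7 were called, 6 lower and 1 higher, where 45.7% of all tested genes were called (20.6% lower, 25.1% higher). The median log2 fold change of the 9 genes was -0.76 in hypoxia and -0.27 in normoxia, beside medians of -0.0029 and 0.033 over all tested genes. The median in hypoxia is the value of the scarce gene CDKN1C, and its neighbours in order are CDKN2C (-0.999) and CDKN1B (-0.38). The comparisons in hypoxia and normoxia use separate libraries. Log2 values are given ± SE, from edgeR's quasi-likelihood fit with Benjamini-Hochberg adjustment over all tested genes.

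Both INK4 genes were lower in shRIPOR3 in hypoxia and in normoxia. CDKN2D had 28.1, 27.6 and 28.02 CPM in hypoxic shRIPOR3 libraries against 64.8, 63.4 and 66.1 CPM in hypoxic shControl libraries, and 26.4, 31.4 and 29.5 CPM in normoxic shRIPOR3 against 60.8, 59.6 and 59.4 CPM in normoxic shControl. All 6 knockdown libraries thus lay below all 6 control libraries. Its log2 fold change was -1.21 ± 0.0432 in hypoxia (adjusted p = 4.59e-17) and -1.03 ± 0.0496 in normoxia (adjusted p = 3.49e-14). CDKN2C had 14.5, 14.9 and 15.6 CPM in hypoxic shRIPOR3 against 30.03, 28.7 and 31.1 CPM in hypoxic shControl, and 12.5, 12.3 and 12.8 CPM in normoxic shRIPOR3 against 24.6, 22.4 and 23.8 CPM in normoxic shControl. Here too the hairpins did not overlap, and the log2 fold change was -0.999 ± 0.0495 in hypoxia (adjusted p = 1.87e-14) and -0.92 ± 0.0628 in normoxia (adjusted p = 1.91e-11).

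Among CIP/KIP genes CDKN1A, which halts the cycle after stress, fell furthest. It had 11.9, 12.8 and 13.1 CPM in hypoxic shRIPOR3 libraries against 35.1, 31.5 and 31.8 CPM in hypoxic shControl libraries (log2 -1.38 ± 0.0538, adjusted p = 2.51e-16), and 11.9, 11.9 and 11.7 CPM in normoxic shRIPOR3 against 20.2, 18.7 and 19.4 CPM in normoxic shControl (log2 -0.72 ± 0.07, adjusted p = 9.13e-09). The level in hypoxic shRIPOR3 lay below that of normoxic shControl in every library. CDKN1B, which holds CDK2 in check in quiescent cells, moved less: 26.01, 24.3 and 24.7 CPM in hypoxic shRIPOR3 against 31.9, 32.8 and 33.2 CPM in hypoxic shControl, with no overlap (log2 -0.38 ± 0.0447, adjusted p = 7.44e-08). In normoxia CDKN1B had 21.9, 19.8 and 21.4 CPM in shRIPOR3 against 24.3, 23.8 and 23.5 CPM in shControl (log2 -0.18 ± 0.056, adjusted p = 0.00954), groups that did not overlap; without replicate 2 of normoxic shRIPOR3 the adjusted p was 0.0646. CDKN1C, an imprinted inhibitor, had 22, 16 and 29 counts in hypoxic shRIPOR3 against 35, 27 and 24 in hypoxic shControl, or 0.458 ± 0.0643 against 0.778 ± 0.0963 CPM (SD, n = 3; log2 -0.76 ± 0.223, adjusted p = 0.00511). In normoxia its 7, 7 and 8 counts in shRIPOR3 and 11, 6 and 10 in shControl gave a log2 fold change with a 95% interval from -1.01 to 0.51, which includes both 0 and the value in hypoxia.

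**Figure D3:**
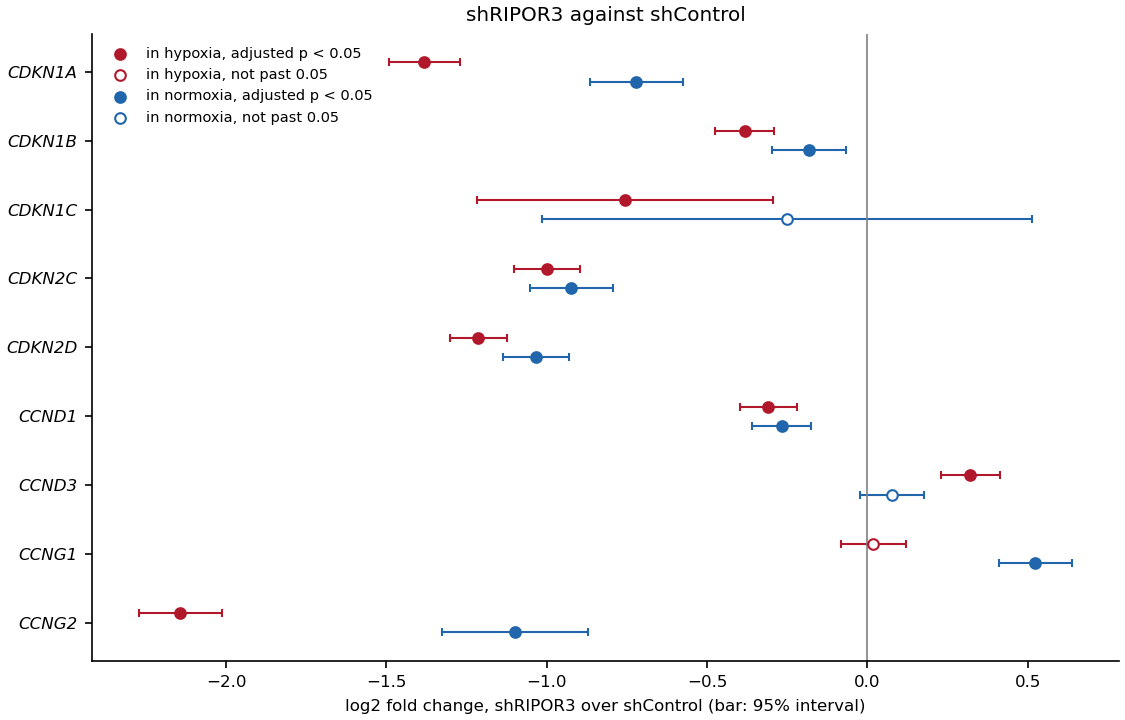
Log2 fold change of each tested gene, shRIPOR3 over shControl, in hypoxia (upper point of each pair) and in normoxia (lower point); bars are 95% intervals and open points did not reach an adjusted p of 0.05. The CDK inhibitors, CCND1 and CCNG2 lie below 0, with CCNG2 in hypoxia furthest at -2.14, and CCND3 and CCNG1 lie at or above 0.

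The D cyclins split. CCND1, the D cyclin most often amplified in breast cancer, had 403, 413 and 393 CPM in hypoxic shRIPOR3 libraries against 499.8, 522 and 476 CPM in hypoxic shControl libraries (log2 -0.31 ± 0.0431, adjusted p = 1.17e-06), and 364, 361 and 348 CPM in normoxic shRIPOR3 against 424, 459.6 and 409 CPM in normoxic shControl (log2 -0.27 ± 0.0441, adjusted p = 2.35e-05). In each oxygen condition all shRIPOR3 libraries lay below all shControl libraries for CCND1. CCND3 went the other way in hypoxia, with 64.4, 58.5 and 60.9 CPM in shRIPOR3 against 50.8, 48.4 and 48.1 CPM in shControl, every shRIPOR3 library above every shControl library (log2 0.32 ± 0.0447, adjusted p = 1.14e-06). In normoxia CCND3 had 63.6, 66.6 and 66.2 CPM in shRIPOR3 against 62.3, 57.5 and 65.6 CPM in shControl, overlapping groups with a log2 fold change between -0.024 and 0.18 (95% interval; adjusted p = 0.211).

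The G cyclins also split, and CCNG2 was the most responsive of all 10 genes. It had 9.49, 8.43 and 9.82 CPM in hypoxic shRIPOR3 libraries against 38.7, 40.3 and 44.4 CPM in hypoxic shControl libraries, 0.227 of the control level (log2 -2.14 ± 0.0627, adjusted p = 1.78e-18). Only 69 of the 15648 tested genes, itself included, had a log2 fold change as low or lower there. In normoxia CCNG2 had 3.70, 4.21 and 4.83 CPM in shRIPOR3 against 9.33, 9.12 and 9.41 CPM in shControl (log2 -1.10 ± 0.109, adjusted p = 1.4e-08). The hairpins did not overlap for CCNG2 in either condition. CCNG1 was instead higher in normoxic shRIPOR3, with 28.9, 28.6 and 30.5 CPM against 20.4, 21.8 and 19.7 CPM in normoxic shControl (log2 0.52 ± 0.0553, adjusted p = 3.54e-08). In hypoxia CCNG1 stood at 20.3, 21.4 and 20.5 CPM in shRIPOR3 and 21.0, 20.2 and 20.1 CPM in shControl, with a 95% interval of the log2 fold change from -0.083 to 0.12 (adjusted p = 0.78).

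The next comparison set hypoxia against normoxia within each hairpin. In shControl 8 of the 9 tested genes were called, 7 higher and 1 lower in hypoxia, where 64.8% of all tested genes were called (32.4% higher, 32.4% lower). In shRIPOR3 5 were called, 4 higher and 1 lower, where 55.6% of all genes were called (25.2% higher, 30.4% lower). The 9 genes had a median log2 fold change of 0.17 in shRIPOR3 and 0.33 in shControl, beside -0.013 and 0.016 over all tested genes. Scaling matters for small values here, since library totals in place of TMM factors raised the median of all genes by 0.12 in shRIPOR3 and 0.11 in shControl and made 63.4% and 61.6% of the called genes higher, instead of 45.3% and 50.02%.

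CCNG2 rose most under both hairpins. From the library values above, its log2 fold change was 1.10 ± 0.0992 in shRIPOR3 (2.14-fold, adjusted p = 1.34e-09) and 2.14 ± 0.0721 in shControl (4.41-fold, adjusted p = 1.09e-17), where 117 of 15648 tested genes, CCNG2 included, rose as much or more. Its hypoxic level in shRIPOR3, 8.43 to 9.82 CPM, overlapped its normoxic level in shControl, 9.12 to 9.41 CPM. CCNG1, the other G cyclin, did the opposite in shRIPOR3, where it fell (log2 -0.51 ± 0.0502, adjusted p = 6.49e-09), and had a log2 fold change of 0.00026 ± 0.0541 in shControl (95% interval -0.11 to 0.11, adjusted p = 0.998). Hypoxic shRIPOR3, hypoxic shControl and normoxic shControl libraries overlapped for CCNG1, and normoxic shRIPOR3 stood above them all.

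The start-site windows of genes at the ends of these ranges are printed below, from 250 bases before to 50 after the RefSeq start (GRCh38.p14), 5′ to 3′. They are CCNG2 (chr4:77156957-77157256, plus strand), which rose most in hypoxia, CDKN1A (chr6:36678464-36678763, plus strand), whose rise differed between hairpins, and CDKN2D (chr19:10568930-10569229, minus strand), which followed the hairpin. Capitals mark ACGTG or GCGTG on either strand, the cores of the hypoxia response element, and GTAAACA, a forkhead motif that none of these 3 windows holds.
CCNG2: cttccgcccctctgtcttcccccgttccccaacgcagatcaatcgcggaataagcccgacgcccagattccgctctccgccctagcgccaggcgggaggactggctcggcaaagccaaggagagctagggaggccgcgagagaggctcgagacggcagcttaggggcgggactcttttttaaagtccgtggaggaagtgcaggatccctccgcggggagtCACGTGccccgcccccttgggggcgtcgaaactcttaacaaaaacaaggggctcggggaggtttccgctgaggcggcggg
CDKN1A: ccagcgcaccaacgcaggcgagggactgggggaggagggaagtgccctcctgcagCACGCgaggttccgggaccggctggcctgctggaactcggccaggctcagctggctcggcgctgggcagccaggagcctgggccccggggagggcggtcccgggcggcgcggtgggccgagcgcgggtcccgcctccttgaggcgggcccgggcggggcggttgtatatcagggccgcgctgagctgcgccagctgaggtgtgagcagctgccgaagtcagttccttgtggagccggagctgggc
CDKN2D: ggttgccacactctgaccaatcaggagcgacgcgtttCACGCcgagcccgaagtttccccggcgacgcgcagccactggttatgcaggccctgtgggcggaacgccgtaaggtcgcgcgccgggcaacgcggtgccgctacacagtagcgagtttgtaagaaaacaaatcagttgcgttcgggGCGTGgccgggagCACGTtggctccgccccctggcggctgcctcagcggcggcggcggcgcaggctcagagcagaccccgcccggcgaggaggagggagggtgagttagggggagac
The CCNG2 window holds CACGTG, an E-box that contains ACGTG on both strands, and its first base lies 30 bases before the start. CDKN2C, whose windows are not printed, also holds CACGTG, at chr1:50960495-50960794 and chr1:50969995-50970294. CDKN1A holds GCGTG once, read on the minus strand and 195 bases before the start. CDKN2D holds 3 cores, 213, 67 and 54 bases before the start. Of 35116 windows of the same length in the RefSeq table, 48.4% held ACGTG or GCGTG, 21.4% ACGTG, 7.26% CACGTG and 3.42% GTAAACA on either strand, so a match is common and is only a description. Windows matched 7 of the 10 genes; CDKN1C, CCND1 and CCND2 are named only. All 12 windows of CDKN2C, CCNG2, CCNG1, CDKN1A, CCND3, CDKN1B and CDKN2D were searched, each of these 7 genes had at least 1 window with a core, as did 52.4% of the 27305 genes in the table, and 1 window of CCND3 held GTAAACA.

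All 5 CDK inhibitors were called higher in hypoxia in shControl, and CDKN1B and CDKN2C also in shRIPOR3. CDKN1A rose by 0.75 ± 0.0569 on the log2 scale in shControl (adjusted p = 3.15e-11), whereas its value in shRIPOR3 was 0.09 ± 0.0678 (adjusted p = 0.268), and hypoxic and normoxic shRIPOR3 libraries overlapped. With library totals the value in shRIPOR3 was 0.21 (adjusted p = 0.0106), below that in shControl also there. CDKN1B rose by 0.25 ± 0.0512 in shRIPOR3 (adjusted p = 0.000179) and by 0.45 ± 0.0497 in shControl (adjusted p = 2.26e-08). CDKN1C rose in shControl (0.95 ± 0.279, adjusted p = 0.00454) and had a 95% interval from -0.20 to 1.10 in shRIPOR3.

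Among INK4 genes CDKN2C rose by 0.26 ± 0.0612 in shRIPOR3 (adjusted p = 0.000886) and by 0.33 ± 0.0519 in shControl (adjusted p = 4.53e-06). CDKN2D had a log2 fold change of -0.07 ± 0.0499 in shRIPOR3 (adjusted p = 0.253), which was 0.054 with library totals and was called without replicate 1 of normoxic shRIPOR3 (-0.12, adjusted p = 0.0396), and rose by 0.11 ± 0.0433 in shControl (adjusted p = 0.0279). That last call was lost in DESeq2 (adjusted p = 0.0684) and when replicate 1, 2 or 3 of normoxic shControl or replicate 1 or 3 of hypoxic shControl was left out, at adjusted p up to 0.104.

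Among D cyclins CCND1 rose by 0.17 ± 0.0437 in shRIPOR3 (adjusted p = 0.00171) and by 0.21 ± 0.0435 in shControl (adjusted p = 0.000149). CCND3 fell in shControl, by 0.34 on the log2 scale (SE 0.0475, adjusted p = 9.8e-07), and its hypoxic shControl libraries lay below all 9 others. In shRIPOR3 CCND3 had a log2 fold change of -0.10 ± 0.0459 (adjusted p = 0.0815), which was 0.027 with library totals; without replicate 1 of hypoxic shRIPOR3 it was -0.13 and called (adjusted p = 0.03).

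**Figure D4:**
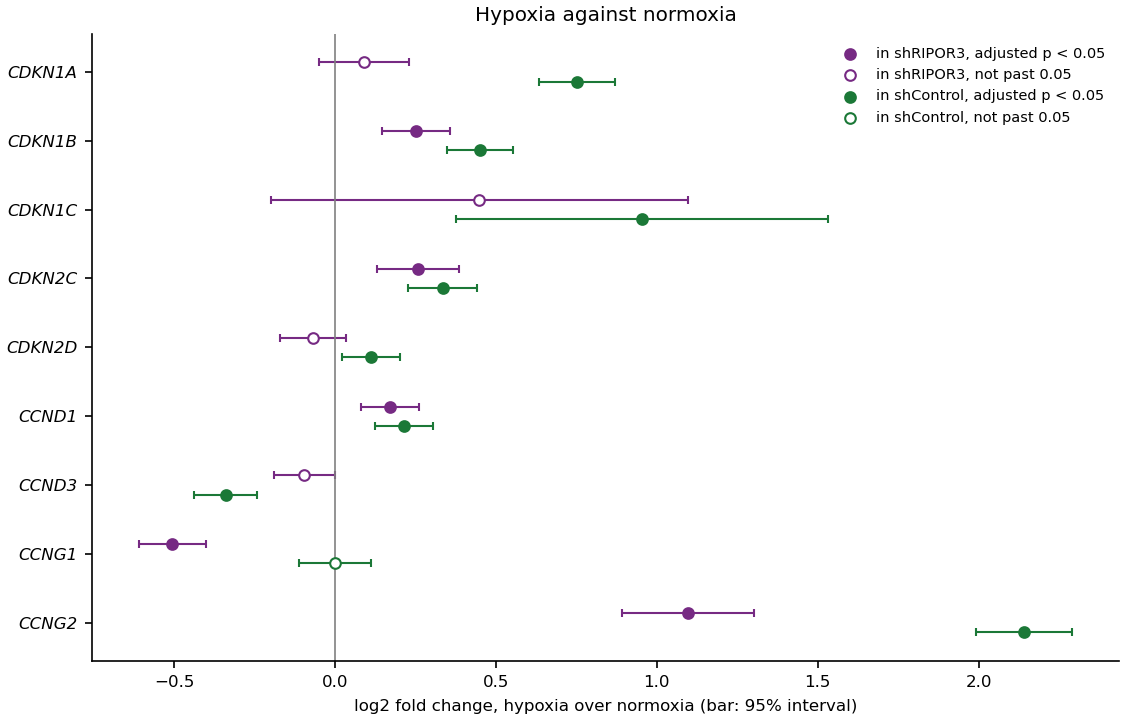
Log2 fold change of each tested gene, hypoxia over normoxia, in shRIPOR3 (upper point of each pair) and in shControl (lower point); bars are 95% intervals and open points did not reach an adjusted p of 0.05. CCNG2 lies furthest right at 1.10 in shRIPOR3 and 2.14 in shControl, CDKN1A is at 0.09 and 0.75, and CCNG1 is at -0.51 in shRIPOR3 and near 0 in shControl.

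Whether hypoxia acted differently under the hairpins was tested as an interaction, the hypoxia effect in shRIPOR3 minus that in shControl. It was called for 5 of the 9 tested genes, 4 lower and 1 higher, where 23.2% of all tested genes were called (12.3% lower, 10.9% higher). CCNG2 had the largest difference at -1.04 ± 0.132 (adjusted p = 3.8e-06), followed by CDKN1A at -0.66 ± 0.0892 (adjusted p = 9.25e-06) and CCNG1 at -0.51 ± 0.0738 (adjusted p = 2.31e-05). CCND3 had a difference of 0.24 ± 0.066 (adjusted p = 0.00873). CDKN1B, at -0.20 ± 0.0717, passed narrowly (adjusted p = 0.0462), with adjusted p from 0.0289 to 0.168 without single libraries and from 0.0349 to 0.149 under the other alternatives, 7 of 9 of which lost the call. It was called when replicate 2 of normoxic shRIPOR3, replicate 1 of hypoxic shControl or replicate 1 of hypoxic shRIPOR3 was left out, and lost without any of the other 9 libraries. For CDKN2D the difference was -0.18 ± 0.0661 (adjusted p = 0.051), and it passed with a filter of 1 CPM (0.0362), with counts thinned to 1 depth (0.0343) and without replicate 1 of normoxic shRIPOR3 (0.0108). Intervals of the difference ran from -0.24 to 0.09 for CDKN2C, from -0.17 to 0.09 for CCND1 and from -1.41 to 0.40 for CDKN1C.

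Lists of related genes are described by counts, beside the shares of all tested genes, and none was tested as a set. Of 22 G1/S genes in hypoxia, 9 were higher in shRIPOR3 and 5 lower (median log2 -0.026), where 61.9% of all tested genes were called; in normoxia 8 were higher and 7 lower (median 0.02), where 45.7% were called. CCNE1, a cyclin E gene, was higher in shRIPOR3 by 0.70 ± 0.0458 in hypoxia and 0.59 ± 0.0512 in normoxia. CCNE2, the other cyclin E gene, was lower, at -0.58 ± 0.0394 in hypoxia and -0.51 ± 0.0446 in normoxia. The cyclin E genes thus moved in opposite directions. CDC25A, the phosphatase that activates CDK2, was higher by 0.66 ± 0.0447 in hypoxia and 0.47 ± 0.0507 in normoxia. CDK6 was lower, at -0.83 ± 0.0478 in hypoxia and -0.65 ± 0.0585 in normoxia. The interaction was called for 4 higher and 1 lower of the 22, against 23.2% of all tested genes. CDK4, the other partner of D cyclins, had an interaction of 0.40 ± 0.0615, SKP2, which targets CDKN1B for destruction, one of 0.29 ± 0.0654, and E2F4 one of 0.25 ± 0.0528 (adjusted p at most 0.00197). In hypoxia against normoxia 10 G1/S genes fell and 3 rose in shRIPOR3 (median -0.094), and 14 fell and 5 rose in shControl (median -0.26), beside 30.4% and 32.4% of all tested genes that fell. MNAT1, a subunit of the CDK-activating kinase, fell, with -0.71 ± 0.0399 in shRIPOR3 and -0.74 ± 0.0402 in shControl; CKS1B, a CDK subunit that works with SKP2, had -0.43 ± 0.039 in shRIPOR3 and -0.58 ± 0.0401 in shControl. CCNH, the cyclin of the CDK-activating kinase, fell by 0.55 (SE 0.0369) in shRIPOR3 and by 0.49 (SE 0.0386) in shControl. CDKN3, a CDK phosphatase, fell by 0.51 (SE 0.0533) in shRIPOR3 and by 0.70 (SE 0.0526) in shControl.

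CCNG2 and CDKN1B are known FOXO targets. Of 17 other FOXO genes and targets 13 rose and 2 fell in hypoxia in shRIPOR3 (median 0.41), where 25.2% of all tested genes rose and 30.4% fell. In shControl 14 rose and 2 fell (median 0.66), where 32.4% of all tested genes rose and 32.4% fell. IRS2, an insulin receptor substrate, rose by 1.74 ± 0.06 in shRIPOR3 and 2.20 ± 0.0715 in shControl, and FOXO3 itself by 0.87 ± 0.0494 in shRIPOR3 and 1.38 ± 0.0535 in shControl. CITED2 rose by 0.57 ± 0.0406 in shRIPOR3 and 0.66 ± 0.0442 in shControl, and the MYC antagonist MXI1 by 0.39 ± 0.0664 in shRIPOR3 and 1.45 ± 0.0613 in shControl. What raised the listed genes in hypoxia was not tested. With the hairpin in hypoxia 11 were lower and 4 higher (median -0.29; 31.2% and 30.7% of all tested genes), among them MXI1 (-1.16 ± 0.0525), KLF6 (-0.51 ± 0.0382) and CITED2 (0.73 ± 0.0394); in normoxia 4 were lower and 5 higher (median -0.069; 20.6% and 25.1% of all tested genes), with IRS2 (1.01 ± 0.0854), CITED2 (0.82 ± 0.0454) and FOXO3 (0.55 ± 0.0611) higher. On knockdown in normoxia FOXO3 was thus higher and CCNG2 lower, and a part of FOXO factors in CCNG2 was not tested. The interaction was called for 7 genes, all lower, where 23.2% of all tested genes were called and 12.3% lower; they include MXI1 (-1.06 ± 0.0923), FOXO3 (-0.51 ± 0.0744) and KLF6 (-0.39 ± 0.0587).

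The last list holds genes that degrade cyclins and CIP/KIP inhibitors. Of 12 tested, 7 were higher and 4 lower in shRIPOR3 in hypoxia (median 0.17; 30.7% and 31.2% of all tested genes), with UBAC1 (0.43 ± 0.0462), FBXO31 (0.30 ± 0.0534) and AMBRA1 (0.23 ± 0.044) higher, and 4 were higher and 2 lower in normoxia (median 0.048; 25.1% and 20.6% of all tested genes), with UBAC1 (0.34 ± 0.0504), SKP1 (0.26 ± 0.0396) and FBXO4 (-0.52 ± 0.102). For hypoxia over normoxia, 3 were higher and 5 lower within shRIPOR3 (median -0.043, beside 25.2% and 30.4% of all tested genes). Within shControl 3 were higher and 7 lower in hypoxia (median -0.18, beside 32.4% and 32.4% of all tested genes). FBXW7, which marks cyclin E for destruction, rose by 0.50 ± 0.0446 in shRIPOR3 and 0.76 ± 0.0451 in shControl, while SKP1 fell under both (-0.42 ± 0.0386 in shRIPOR3 and -0.34 ± 0.0394 in shControl). AMBRA1, the receptor that marks D cyclins, rose by 0.40 ± 0.048 in shRIPOR3 and 0.13 ± 0.0493 in shControl, and GSK3B by 0.13 ± 0.042 in shRIPOR3 and 0.41 ± 0.0431 in shControl. In the interaction 3 were higher and 2 lower (10.9% and 12.3% of all tested genes), with FBXO31 at 0.36 ± 0.0808, GSK3B at -0.28 ± 0.0603 and FBXW7 at -0.26 ± 0.0639.

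**Figure D5:**
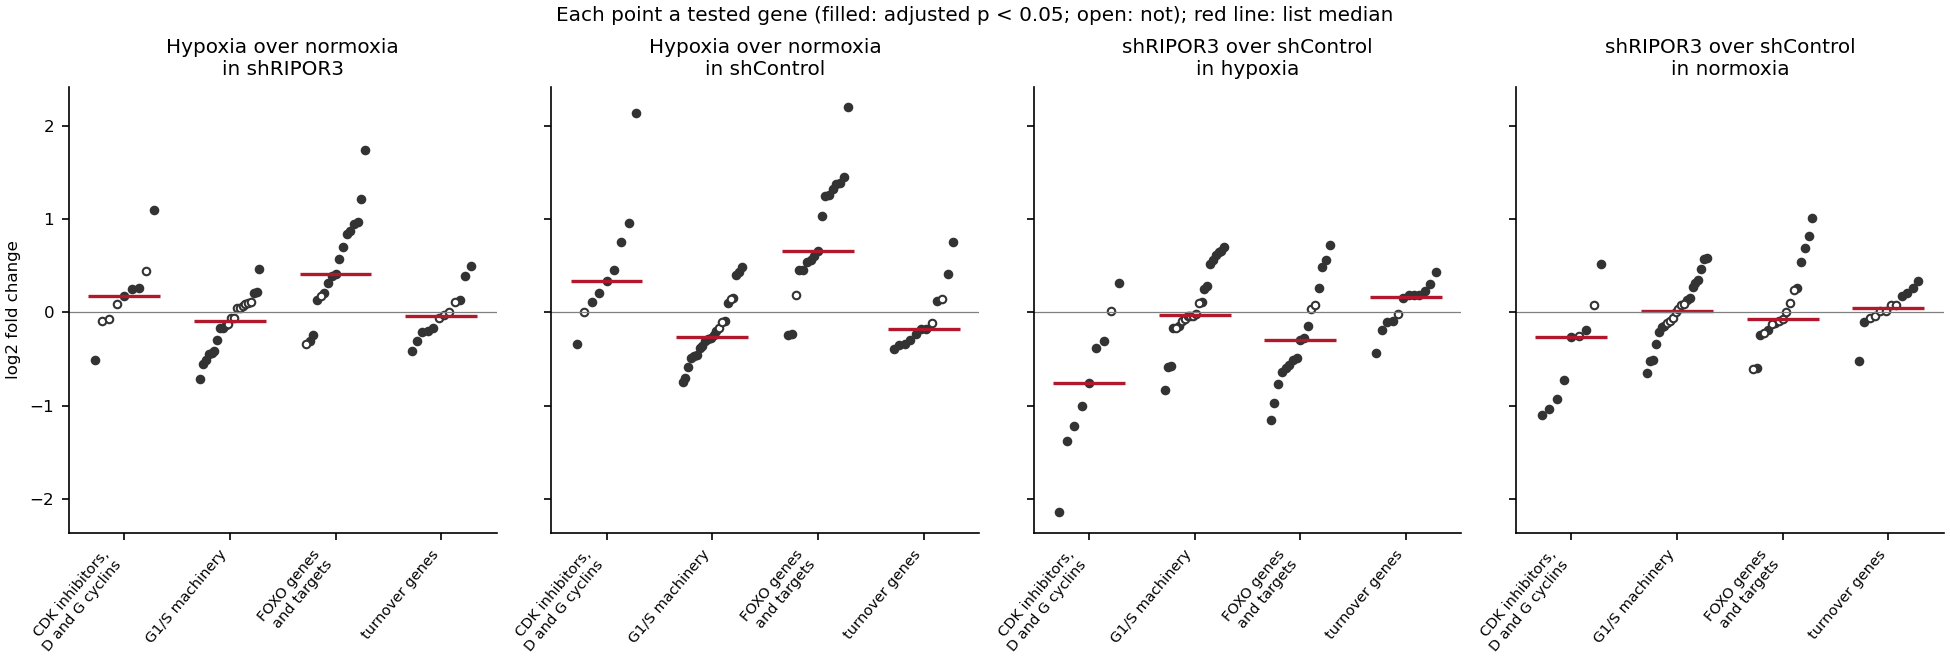
Log2 fold change of every tested gene of the 10 studied genes and of 3 related lists in 4 comparisons (filled points: adjusted p under 0.05; open points: not; red line: list median). The studied genes have a median of -0.76, the value of CDKN1C, for shRIPOR3 over shControl in hypoxia. FOXO genes have a median of 0.66 for hypoxia over normoxia in shControl.

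Across the 12 libraries the genes with the widest ranges of group means were CCNG2 (3.26 on the log2 CPM scale), CDKN1A (1.46) and CDKN2C (1.255). Among 9789 other genes with a mean of at least 5 CPM, those most like CCNG2 by Pearson's r were PLOD2 (0.997), EPAS1 (0.995) and ERRFI1 (0.995). The nearest to CDKN1A were ADD3 (0.995), HMGCS1 (0.995) and CD46 (0.991), and the nearest to CDKN2C were EHBP1L1 (0.997), TIMELESS (0.996) and COL6A2 (0.995). All points share the 4 groups and their depths, so these values describe the shape across groups only. PLOD2, for example, averaged 72.8 ± 1.65 CPM in hypoxic shRIPOR3, 216 ± 5.21 in hypoxic shControl, 40.4 ± 1.41 in normoxic shRIPOR3 and 69.9 ± 0.747 in normoxic shControl (SD, n = 3 each), so that hypoxic shRIPOR3 stood near normoxic shControl, as it did for CCNG2.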

How the data were processed

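Gene expression was measured by RNA sequencing in 12 libraries of MDA-MB-231 cells. The authors deposited raw counts per gene symbol, 1 column per library. Per the submitters' processing notes, GRCh38, featureCounts, STAR 2.5.3a and fastp 0.23.4 were used; no role is stated for each. The sources used here give neither the annotation nor the strand setting.

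From the counts, edgeR 4.0.16 (R 4.3.3) fitted 1 coefficient per group over all 12 libraries, with TMM factors, full library totals and filterByExpr, which left 15648 of 24641 symbols. P-values of quasi-likelihood F-tests were adjusted after Benjamini-Hochberg, and 0.05 was the threshold. The SE of a log2 fold change is its size over the square root of F, and 95% intervals use the fit's degrees of freedom. The biological coefficient of variation was 3.74%. Within groups, all 12 replicate pairs differed beyond counting noise (chi-square per degree of freedom 2.65 to 6.32). Levels are CPM with TMM factors, and exon lengths are unions over GENCODE 29 basic protein-coding transcripts. Same-numbered replicates were not treated as pairs, since none of 18 pairs across groups had a correlation of deviations over 0.1.

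The rule for named genes takes the 10 genes, RIPOR3, CDKN2A, CDKN2B, up to 3 called genes of the smallest p from each related list per comparison, and the 3 most similar genes for 3 members. A further related list is not reported here. Genes and lists were chosen with earlier results of these data known. Alternatives were DESeq2 1.42.0, other scalings, filters, a stricter threshold (0.01), a block for replicate number, fits restricted to the compared groups, and single libraries left out in turn; thinning to the lowest total was added after seeing the data. The fit was also run on counts simulated from its own estimates of spread, which checks the code and not the design.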

Additional observations from a re-analysis of the deposited data

Results flagged for a closer look

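The effect of hypoxia differed between the hairpins, by the test of the interaction in edgeR's quasi-likelihood fit, for 5 of the 9 tested genes (23.2% of all tested genes were called). The hypoxia effect in shRIPOR3 minus that in shControl, on the log2 scale, was -1.04 for CCNG2, -0.66 for CDKN1A, -0.51 for CCNG1, 0.24 for CCND3 and -0.20 for CDKN1B. The call of CDKN1B (adjusted p = 0.0462) was lost in 7 of 9 other alternatives and in 9 of 12 fits without 1 library. CDKN1A rose in hypoxic shControl with overlapping levels in shRIPOR3, and CCNG1 fell in hypoxic shRIPOR3 with overlapping levels in shControl.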

How the results depend on the processing

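Of 976 values of single genes under the alternatives, 929 kept their direction and their side of the threshold. Counts of called members stayed within 1 of the main count under every alternative. Among all genes, the number called for the interaction was 2185 at a threshold of 0.01 against 3624 at 0.05. Values that changed sign belong to genes that were not called: CCNG1 for hypoxia in shControl was -0.011 in DESeq2, -0.0105 with median-of-ratios factors and -0.00085 with a replicate block, and ran from -0.038 to 0.027 without single libraries. With library totals CDKN2D had 0.054 and CCND3 0.027 for hypoxia in shRIPOR3. CCNG1 for shRIPOR3 over shControl in hypoxia was -0.072 with thinned counts and ran from -0.00026 to 0.038 without single libraries, and the interaction of CCND1 ran from -0.0855 to 0.0294, being above 0 without replicate 2 of hypoxic shControl. The cause of these shifts was not tested. Calls that changed concerned CDKN2D and CDKN1B, whose values stand with their results, CDKN1A with library totals and CCND3 without 1 library. The replicate block, for numbers that did not pair the libraries, changed no call of a member and gave 10113, 8664, 7119, 9694 and 3596 called genes, against 10143, 8704, 7150, 9689 and 3624 without it, in the 5 comparisons (hypoxia in shControl, hypoxia in shRIPOR3, knockdown in normoxia, knockdown in hypoxia and interaction). Depth limits CDKN1C and CCND2 most, and CDKN1C was not tested with a filter of 1 CPM. The interaction was not run with only the groups compared, since it uses all 4.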

Other observations

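CDKN2A and CDKN2B, the INK4 genes beside those described, had few reads. CDKN2A had 44 counts over the 12 libraries, or 0.115 CPM (95% exact Poisson interval 0.0833 to 0.154, counting error only), with 0 counts in 2 libraries. CDKN2B had 52 counts, or 0.135 CPM (0.101 to 0.178), with 2 to 12 per library. MDA-MB-231 is known to lack the locus that holds both genes, and the source of the reads counted for them was not tested. CDKN2D was thus the most abundant INK4 gene per kb of exon in every group.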
